A study of Arabidopsis thaliana with 12 samples.

Results

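Whole Arabidopsis thaliana seedlings that had spent 12 h at 27°C were compared with seedlings left at 21°C, neither of them given mannitol. The comparison uses 6 of the 12 libraries of the series, the 3 of the 27°C group and the 3 of the 21°C group, and runs over all 27655 genes of the deposited table, of which 20005 had enough signal to be tested. Both groups were wild type Columbia, without a transgene or mutant allele. The seedlings were 7 days old and had grown at 21°C with 8 h of light and 16 h of dark each day. The warm group was moved 1 h after lights on, and both groups were collected 13 h after lights on, which is 5 h into the dark. The other 6 libraries came from the same temperatures with mannitol, a sugar alcohol used as an osmotic stress, and enter here through the filter on low genes, the estimate of the spread, the rescaling of libraries and the difference between the warm responses with and without it. With a single time of collection, a higher level of a rhythmic transcript and a shift in its phase cannot be told apart.

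Arabidopsis responds to warmth below the heat stress range by lengthening its hypocotyl and petioles and raising its leaves, a growth programme called thermomorphogenesis. Warmth reverts phytochrome B to its inactive form and weakens the evening complex of ELF3, ELF4 and LUX, and both otherwise hold back the gene PIF4 and its protein, a transcription factor that turns on auxin synthesis and cell elongation. Chaperone, clock, cold, photosynthesis and defence genes also depend on ambient temperature in this species.

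Expression is given in TPM, the reads of a gene divided by its length and scaled so that each library sums to 1000000. Differences were tested as log2(TPM + 1), 27°C minus 21°C, in 1 limma fit over all tested genes, with Benjamini-Hochberg adjusted p-values. A gene passed when that value was below 0.05. A log2 difference is followed by the standard error (SE) of the fit, and a mean TPM by the standard deviation (SD) of 3 libraries. Because of the added 1, low genes have log2 differences below those of their TPM ratios. The replicates are not described as separate cultures, so p-values measure only the spread between these samples, which may be technical.

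Of the tested genes 8958, or 44.8%, passed: 5636 rose at 27°C, which is 28.2%, and 3322 fell, which is 16.6%. Most changes were small: 773 genes rose at least 2-fold (3.86%) and 255 fell at least 2-fold (1.27%), 113 and 13 moved at least 4-fold, and 28 and 4 at least 8-fold. The median tested gene stood at a log2 difference of 0.09. Rescaling the libraries by the median of ratios shifted the differences by a median of 0.09, downwards for most genes, and the split then became 4398 higher, or 22%, and 4357 lower, or 21.8%. The counts of small changes in either direction therefore rest on the scaling, and list counts are given after rescaling where they moved by more than 1.5 times or the balance turned. Counts of list members that rose or fell are to be read against the 28.2% and 16.6% of all tested genes, or the 22% and 21.8% after rescaling, and list medians cover only members that passed the filter on low values. In the plot of all tested genes the largest fall was that of LHCB1.1, an antenna gene of photosystem II, and the largest rise that of M17, a late embryogenesis gene.

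**Figure D1:**
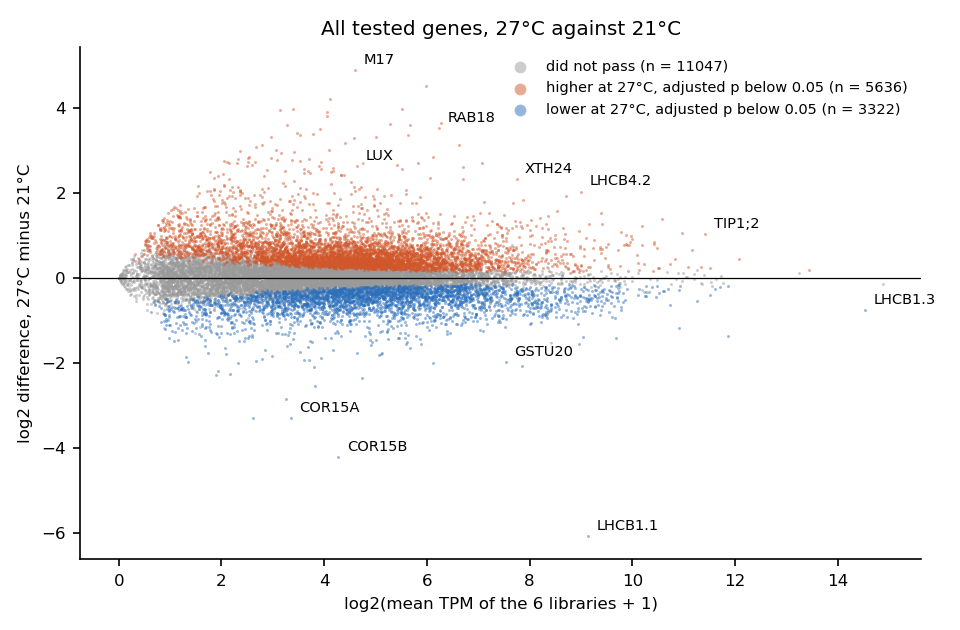
Each point is a tested gene, with log2 of its mean TPM over the 6 libraries plus 1 on the x axis and its log2 difference, 27°C minus 21°C, on the y axis. Orange points passed as higher (5636) and blue points as lower (3322), grey points did not pass, and large rises are more numerous than large falls.

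The libraries held between 13700774 and 14164153 reads, recovered from the TPM values. Genes with at least 1 TPM numbered 18762, 18908 and 18907 in the 21°C libraries and 19141, 19172 and 19176 in the 27°C libraries. Shoot and root markers were both present. The summed TPM of the root markers was 3036, 3377 and 3464 at 21°C and 3844, 3692 and 4041 at 27°C, higher in every warm library. Leaving out the highly expressed BGLU23, it was 734, 951 and 1101 at 21°C and 1097, 961 and 1098 at 27°C. These groups overlapped, and 21°C replicate 1 was low. The summed TPM of the shoot markers was 7992, 7668 and 7727 at 21°C and 7230, 6736 and 7303 at 27°C, lower in every warm library. In whole seedlings, fewer cells of a type and less RNA per cell cannot be told apart.

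Transcript length moved with the comparison. With the tested genes cut into 5 equal classes by transcript length, 20.3% rose and 22.7% fell in the shortest class, up to 1128 bases, whereas in the longest, from 2500 bases, 27.6% rose and 10.7% fell. The 27°C libraries also differed by length among themselves. Against the other libraries of its group, 27°C replicate 1 had a median log2 difference of -0.19 in the shortest class and 0.25 in the longest, and 27°C replicate 2 had 0.20 and -0.30. The 21°C libraries stayed between -0.05 and 0.04 in every class, and 27°C replicate 3 reached 0.06. The part of length in the results that follow was not tested beyond the values given beside them.

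**Figure D2:**
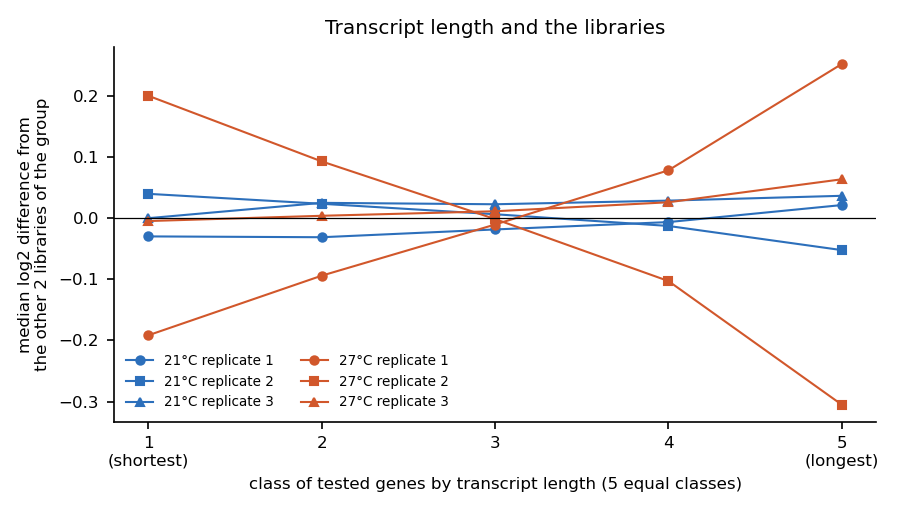
The x axis gives 5 equal classes of the tested genes from the shortest to the longest transcripts, and the y axis the median log2 difference of each library from the other 2 libraries of its group. Blue lines are the 21°C and orange lines the 27°C replicates; 27°C replicates 1 and 2 run in opposite directions while the 21°C lines stay near 0.

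Growth-promoting basic helix-loop-helix genes were higher at 27°C. PIF4 measured 2.104, 2.08 and 2.43 TPM at 21°C and 10.7, 9.01 and 10.6 TPM at 27°C. Every warm library lay above every 21°C library, and the gene rose 4.58-fold (log2 difference 1.79 ± 0.16 (SE), adjusted p = 5.75e-07). PIF5, a paralogue of PIF4 with overlapping functions, measured 8.01, 7.38 and 8.77 TPM at 21°C and 25.1, 19.8 and 23.501 TPM at 27°C (log2 difference 1.39 ± 0.10 (SE), adjusted p = 9.76e-08). Of the 18 tested genes of the PIF family and its helix-loop-helix partners, 12 rose and 0 fell, with a median log2 difference of 0.39, beside 28.2% higher, 16.6% lower and a median of 0.09 over all tested genes. After rescaling, 8 rose and 1 fell, the latter being PIF7, a PIF of shade and warm-day responses. Before rescaling PIF7 did not pass (log2 difference -0.35, adjusted p = 0.0893). PRE1, an atypical helix-loop-helix protein that frees growth-promoting factors from their inhibitors, rose from 1.02 ± 0.22 to 6.54 ± 1.4 TPM (log2 difference 1.89 ± 0.22 (SE), adjusted p = 8.15e-06). HFR1, which binds PIF proteins and keeps them from DNA, rose as well, from 2.06 ± 0.69 to 8.53 ± 0.83 TPM (log2 difference 1.66 ± 0.16 (SE), adjusted p = 1.27e-06). Promoting and restraining members were both among the genes that rose.

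Light receptor transcripts changed by smaller amounts. PHYB, the phytochrome that senses warmth, measured 45.9, 41.6 and 45.0 TPM at 21°C and 56.8, 36.1 and 48.1 TPM at 27°C. The groups overlapped, and PHYB did not pass (log2 difference 0.06 ± 0.12 (SE), adjusted p = 0.687). PHYA, the far-red receptor, rose from 70.8 ± 0.68 to 131 ± 24 TPM (log2 difference 0.86 ± 0.10 (SE), adjusted p = 8.09e-06), and the blue light receptor PHOT1 rose from 79.3 ± 4.8 to 137 ± 24 TPM (log2 difference 0.76 ± 0.10 (SE), adjusted p = 2.03e-05). FHL, which carries phytochrome A into the nucleus, rose from a low level, from 0.838 ± 0.38 to 3.27 ± 0.41 TPM (log2 difference 1.24 ± 0.19 (SE), adjusted p = 0.000121), and SPA1, a partner of the ubiquitin ligase COP1, rose by 0.65 on the log2 scale. HY5, the transcription factor that promotes light-grown development, measured 24.2, 26.52 and 25.4 TPM at 21°C and 15.9, 21.2 and 18.6 TPM at 27°C. The groups did not overlap, and HY5 fell (log2 difference -0.44 ± 0.11 (SE), adjusted p = 0.00362). In this list of 24 tested genes 10 rose and 2 fell, HY5 and PHYD (log2 difference -0.28, adjusted p = 0.0479). The PHYD groups overlapped, and its call was lost without filter, with the replicate block, in the 6 libraries alone and without 21°C replicate 1 or 2 or 27°C replicate 2 or 3. The median transcript of the 24 genes was 3193 bases against 1726 for all tested genes, and their median log2 difference was 0.15. Without 27°C replicate 2, which was low in long transcripts, 15 rose and 2 fell, with a median of 0.31. With length centring 9 rose and 2 fell, with a median of 0.08.

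Part of the shade and light factors were higher. The HD-ZIP II gene ATHB2, a shade-induced promoter of elongation, rose from 5.47 ± 0.28 to 12.5 ± 2.0 TPM (log2 difference 1.05 ± 0.12 (SE), adjusted p = 6.41e-06), and HAT2 rose from 25.1 ± 0.65 to 52.7 ± 5.1 TPM (log2 difference 1.04 ± 0.08 (SE), adjusted p = 2.31e-07). HAT1 and HAT3, of the same class, rose too, and these 4 of 8 tested members were those that passed. Of 12 tested B-box factors, zinc finger proteins that work with or against HY5, 9 rose and 1 fell, with a median of 0.78. The median was 0.30 over 18 members with no filter and 0.40 over the 8 members left by a filter of 5 TPM. BBX24, which restrains HY5, measured 6.14, 7.45 and 4.71 TPM at 21°C and 18.17, 24.7 and 18.24 TPM at 27°C. The lowest warm library was far above the highest 21°C library, and BBX24 rose (log2 difference 1.59 ± 0.16 (SE), adjusted p = 2.72e-06). BBX18, a promoter of elongation in warmth, rose from 0.224 ± 0.15 to 2.34 ± 0.56 TPM (log2 difference 1.44 ± 0.24 (SE), adjusted p = 0.000182), from a level near the limit of detection. BBX20, which supports HY5, was the member that fell, from 20.8 ± 0.66 to 13.1 ± 0.81 TPM (log2 difference -0.63 ± 0.12 (SE), adjusted p = 0.000572).

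**Figure D3:**
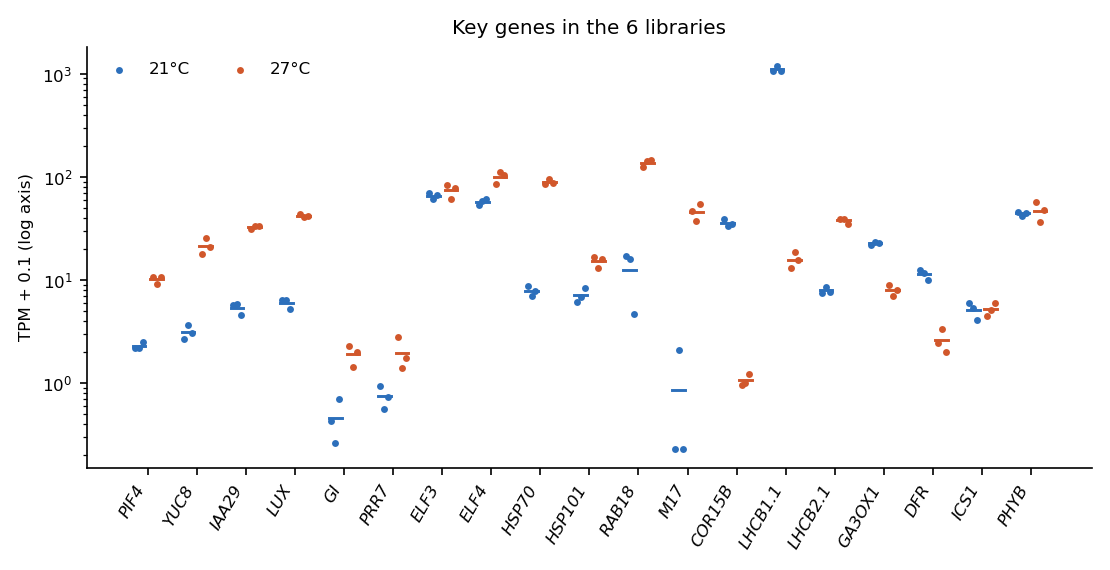
TPM plus 0.1 on a log axis for 19 genes, with each library as a point and each group mean as a bar, 21°C in blue and 27°C in orange. The groups overlap for ELF3, ICS1 and PHYB and are apart for the other genes, with LHCB1.1 and COR15B lower and LUX, HSP70 and M17 higher at 27°C.

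Clock genes were higher at 27°C at this hour of the night. The evening complex is a night-time repressor whose DNA contact is made by LUX, with ELF3 as its scaffold and thermosensor. LUX measured 6.37, 6.34 and 5.18 TPM at 21°C and 43.3, 40.7 and 41.9 TPM at 27°C. The groups were far apart, and LUX rose 7.04-fold (log2 difference 2.63 ± 0.10 (SE), adjusted p = 1.29e-10). ELF4 measured 53.9, 57.9 and 61.0 TPM at 21°C and 84.6, 112 and 103 TPM at 27°C, again without overlap (log2 difference 0.78 ± 0.08 (SE), adjusted p = 4.61e-06). ELF3 measured 69.1, 61.4 and 66.4 TPM at 21°C and 83.7, 60.4 and 77.2 TPM at 27°C. The warm libraries spanned the range of the 21°C libraries, and ELF3 did not pass (log2 difference 0.16 ± 0.10 (SE), adjusted p = 0.207). The transcripts of the complex moved by unequal amounts.

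Of 15 tested evening genes, 12 rose and 0 fell, with a median log2 difference of 0.73. TOC1, an evening pseudo-response regulator that represses morning genes, rose from 64.5 ± 4.7 to 141 ± 18 TPM (log2 difference 1.11 ± 0.08 (SE), adjusted p = 1.31e-07). PRR5, of the same family, rose from 4.44 ± 0.51 to 11.1 ± 1.5 TPM (log2 difference 1.15 ± 0.13 (SE), adjusted p = 5.06e-06). GI, a scaffold of photoperiod timing whose transcript peaks before dusk, was low in both groups, at 0.329, 0.167 and 0.601 TPM at 21°C and 2.19, 1.35 and 1.92 TPM at 27°C. All warm values still exceeded all 21°C values, and GI rose (log2 difference 1.05 ± 0.21 (SE), adjusted p = 0.000833). Of 11 tested morning and day genes 9 rose and 0 fell, with a median of 0.78, or 1.37 with a pseudocount of 0.1 and 1.44 with voom, and of the 16 listed, CCA1 and PRR9 were among those too low to test. RVE4, an activator of evening genes, measured 33.4, 30.6 and 31.0 TPM at 21°C and 92.7, 92.3 and 92.1 TPM at 27°C. Its warm libraries were nearly equal and well above those at 21°C (log2 difference 1.52 ± 0.10 (SE), adjusted p = 3.04e-08). RVE1, which promotes auxin synthesis genes, rose from 4.22 ± 0.41 to 13.9 ± 0.92 TPM (log2 difference 1.52 ± 0.12 (SE), adjusted p = 1.48e-07), and RVE7 rose from 1.12 ± 0.11 to 7.52 ± 1.1 TPM (log2 difference 2.003 ± 0.14 (SE), adjusted p = 9.04e-08). PRR7, a morning repressor, rose from a low level, from 0.648 ± 0.19 to 1.88 ± 0.72 TPM (log2 difference 0.78 ± 0.24 (SE), adjusted p = 0.0148), and lost the call without 21°C replicate 2 or without 27°C replicate 1.

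Evening clock promoters often carry the evening element AAAATATCT, which REVEILLE and CCA1 proteins bind. The 250 bases before the gene start of 3 genes that rose are shown so that its place can be seen. Sequences were read 5′ to 3′ on the gene's strand from the RefSeq assembly TAIR10.1, and capitals mark the evening element on either strand.
LUX promoter, chr3:17182792-17183041 (plus strand): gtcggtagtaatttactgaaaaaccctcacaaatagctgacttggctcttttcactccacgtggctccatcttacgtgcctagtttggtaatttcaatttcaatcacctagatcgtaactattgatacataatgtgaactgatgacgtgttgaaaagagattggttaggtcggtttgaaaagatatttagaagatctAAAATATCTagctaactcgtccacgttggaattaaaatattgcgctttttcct
TOC1 promoter, chr5:24674713-24674962 (plus strand): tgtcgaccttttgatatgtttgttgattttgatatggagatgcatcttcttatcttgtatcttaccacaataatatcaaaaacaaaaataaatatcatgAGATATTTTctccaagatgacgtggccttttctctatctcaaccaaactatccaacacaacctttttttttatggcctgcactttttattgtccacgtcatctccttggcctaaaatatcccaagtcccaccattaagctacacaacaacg
PRR5 promoter, chr5:8358547-8358796 (minus strand): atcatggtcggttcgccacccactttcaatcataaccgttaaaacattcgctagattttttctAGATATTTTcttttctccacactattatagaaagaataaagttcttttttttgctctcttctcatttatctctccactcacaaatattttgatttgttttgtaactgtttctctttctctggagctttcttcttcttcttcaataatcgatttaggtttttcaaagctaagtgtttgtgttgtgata
Counted back from the gene start, the first base of the element lies 53 bases before LUX, 151 before TOC1 and 187 before PRR5. Among the 12 evening genes that rose, 5 windows (41.7%) held the element on either strand, those of LUX, BOA, FKF1, TOC1 and PRR5. Over all 19893 tested genes with such a window, 492 (2.47%) held it. Windows of listed evening genes that did not rise were not counted, so whether the share goes with the rise was not tested. A match describes letters and is not a binding site.

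Flowering time genes moved in both directions. The Dof factor CDF2, which represses the flowering gene CONSTANS, rose from 1.27 ± 0.32 to 6.03 ± 0.88 TPM (log2 difference 1.64 ± 0.18 (SE), adjusted p = 3.87e-06), and CDF3, of the same group, rose by 1.03. COL1, a relative of CONSTANS, rose from 3.70 ± 0.77 to 9.95 ± 0.72 TPM (log2 difference 1.23 ± 0.14 (SE), adjusted p = 7.53e-06). SOC1, a floral promoter, measured 5.71, 5.002 and 5.60 TPM at 21°C and 1.71, 2.29 and 2.81 TPM at 27°C. Each warm value was below each 21°C value, and SOC1 fell (log2 difference -0.99 ± 0.16 (SE), adjusted p = 0.000126). SPL4, another promoter of the floral transition, fell from 3.22 ± 0.91 to 0.961 ± 0.34 TPM (log2 difference -1.10 ± 0.28 (SE), adjusted p = 0.0046). The list held 10 genes that rose (37%) and 3 that fell (11.1%) among 27 tested, beside 28.2% and 16.6% of all tested genes.

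Several YUC genes of auxin synthesis were higher. YUC8 encodes a flavin monooxygenase that makes auxin from indole-3-pyruvic acid and is a target of PIF4. It measured 2.58, 3.58 and 2.95 TPM at 21°C and 17.7, 25.8 and 20.8 TPM at 27°C. The groups did not overlap, and YUC8 rose 7.07-fold (log2 difference 2.47 ± 0.18 (SE), adjusted p = 1.14e-07). YUC9 rose from 1.45 ± 0.51 to 5.05 ± 0.97 TPM (log2 difference 1.31 ± 0.19 (SE), adjusted p = 5.03e-05), YUC6 by 0.65 and YUC2 by 0.41, of which YUC2 lost its call in most alternatives. TAA1, the aminotransferase of the preceding step, measured 26.1, 26.7 and 33.9 TPM at 21°C and 20.7, 19.4 and 19.1 TPM at 27°C and fell (log2 difference -0.52 ± 0.10 (SE), adjusted p = 0.000824). CYP79B2, which feeds the indole pathway, fell by 0.16 on the log2 scale, a call lost without 21°C replicate 2 or 3, without 27°C replicate 1 or 3, with the replicate block, with no trend and in the 6 libraries alone. Of 11 tested synthesis genes 4 rose and 2 fell, or 3 and 5 with length centring.

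Early auxin response genes were widely higher. Aux/IAA proteins are repressors of auxin response that auxin itself induces. Of 25 tested, 15 rose and 0 fell, with a median log2 difference of 0.48. IAA29 measured 5.68, 5.76 and 4.51 TPM at 21°C and 31.5, 33.1 and 33.4 TPM at 27°C. The warm libraries lay close to each other and far above the 21°C libraries (log2 difference 2.42 ± 0.12 (SE), adjusted p = 3.31e-09). IAA19 rose from 4.89 ± 0.80 to 16.96 ± 3.5 TPM (log2 difference 1.60 ± 0.16 (SE), adjusted p = 1.98e-06). Among abundant members, IAA2 rose from 58.7 ± 0.24 to 161 ± 18 TPM (log2 difference 1.43 ± 0.08 (SE), adjusted p = 7.53e-09) and IAA7 rose from 146 ± 5.3 to 347 ± 30.4 TPM (log2 difference 1.24 ± 0.06 (SE), adjusted p = 3.78e-09).

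SAUR genes encode small proteins, several of which activate the plasma membrane proton pump during elongation. Of 31 tested, 20 rose and 2 fell, with a median of 0.78. SAUR22 measured 0.221, 1.12 and 1.32 TPM at 21°C and 4.97, 8.45 and 7.98 TPM at 27°C (log2 difference 2.13 ± 0.29 (SE), adjusted p = 3.14e-05). SAUR20, SAUR23 and SAUR24 rose as well, by 1.74, 1.62 and 1.94. These genes are near-identical copies, and how reads shared between them were handled is not stated, so single-copy values are uncertain. The sum of SAUR19 to SAUR24 was 9.60, 13.5 and 8.66 TPM at 21°C and 37.5, 49.5 and 49.0 TPM at 27°C, without overlap. Any shared reads left out of the counts would be missing from the sum as well. SAUR41 went the other way, from 21.6 ± 3.0 to 4.28 ± 0.46 TPM (log2 difference -2.09 ± 0.15 (SE), adjusted p = 8.24e-08), and so did SAUR71, from 18.4 ± 2.6 to 5.32 ± 0.86 TPM (log2 difference -1.62 ± 0.16 (SE), adjusted p = 1.38e-06). The median transcript of the tested SAUR genes was 834 bases against 1726 for all tested genes. With length centring 22 rose and 2 fell, with a median of 0.84.

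Of 29 genes of auxin transport and turnover 16 rose and 3 fell. PILS5, an auxin carrier of the endoplasmic reticulum, measured 20.16, 25.05 and 25.5 TPM at 21°C and 89.9, 86.2 and 96.5 TPM at 27°C. All warm values were above all 21°C values, 3.85-fold in the mean (log2 difference 1.91 ± 0.09 (SE), adjusted p = 1.82e-09). GH3.5 and GH3.17, which conjugate auxin to amino acids, rose by 0.94 and 0.92.

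Brassinosteroid genes were mostly higher, beside 28.2% higher and 16.6% lower over all tested genes. Of 21 tested brassinosteroid genes 14 rose and 0 fell, with a median of 0.34, or 0.22 with length centring. CPD, a cytochrome P450 of brassinosteroid synthesis, measured 98.6, 90.0 and 91.2 TPM at 21°C and 176, 163 and 169 TPM at 27°C. Every warm library exceeded every 21°C library (log2 difference 0.85 ± 0.06 (SE), adjusted p = 6.68e-08). BZR1, the transcription factor of the pathway, rose from 29.0 ± 2.4 to 49.1 ± 5.9 TPM (log2 difference 0.74 ± 0.09 (SE), adjusted p = 2.09e-05), and BAT1, which inactivates brassinosteroids, rose from 27.4 ± 2.7 to 51.5 ± 2.4 TPM (log2 difference 0.89 ± 0.09 (SE), adjusted p = 1.35e-06).

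Among 25 gibberellin genes 14 rose and 3 fell, beside the same 28.2% and 16.6%. GASA6, a gibberellin-regulated peptide, rose from 185 ± 12 to 552 ± 42 TPM (log2 difference 1.57 ± 0.06 (SE), adjusted p = 3.01e-10), and GASA14 rose from 94.7 ± 10.02 to 268 ± 42 TPM (log2 difference 1.48 ± 0.10 (SE), adjusted p = 3.69e-08). GA3OX1, which makes the active hormone and is held down by active gibberellin through feedback, measured 21.66, 23.2 and 23.0 TPM at 21°C and 8.86, 6.88 and 7.89 TPM at 27°C. The groups were apart, and GA3OX1 fell (log2 difference -1.42 ± 0.11 (SE), adjusted p = 1.54e-07). GA3OX2, its paralogue, fell by 0.67, and GA3, an enzyme at the start of the pathway, fell by 0.30.

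Cytokinin genes were the growth hormone list with more members lower than higher, 6 against 4 of 24, or 10 against 2 after rescaling. ARR7, a response regulator that cytokinin induces and that dampens its signal, measured 23.9, 25.4 and 26.8 TPM at 21°C and 7.99, 10.9 and 10.3 TPM at 27°C. Every warm value was well below every 21°C value (log2 difference -1.31 ± 0.11 (SE), adjusted p = 3.21e-07). ARR15, its close relative, fell by 1.04. IPT3, a synthesis enzyme, fell from 25.7 ± 2.9 to 12.4 ± 1.7 TPM (log2 difference -0.997 ± 0.11 (SE), adjusted p = 3.75e-06), and CKX4, a degrading enzyme, fell by 0.90. The 4 that rose, LOG5, AHK3, CYP735A2 and ARR9, all lost their calls without 27°C replicate 3.

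Of 34 ethylene genes 22 rose and 3 fell, with a median of 0.32, or 0.21 with length centring. ACS8, a synthase of the ethylene precursor ACC, measured 0.716, 0.484 and 0.714 TPM at 21°C and 11.6, 9.27 and 8.86 TPM at 27°C. It was barely detected in each 21°C library and clearly present in each warm library (log2 difference 2.73 ± 0.20 (SE), adjusted p = 8.71e-08). The synthases ACS11 and ACS4 rose by 1.199 and 1.05. ARGOS, which lowers ethylene sensitivity, rose from 7.04 ± 1.8 to 18.96 ± 3.3 TPM (log2 difference 1.33 ± 0.18 (SE), adjusted p = 3.78e-05), and ORA59, a defence factor of ethylene and jasmonate, fell from 4.44 ± 1.2 to 2.01 ± 0.092 TPM (log2 difference -0.83 ± 0.18 (SE), adjusted p = 0.0017).

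Cell wall loosening genes moved in both directions. Of 41 tested expansins and xyloglucan transglycosylases 16 rose and 5 fell, and after rescaling 15 and 10. XTH24, a xyloglucan transglycosylase, measured 105, 67.5 and 47.5 TPM at 21°C and 359, 364 and 339 TPM at 27°C. The 21°C libraries differed widely among themselves, and all warm libraries were far above them (log2 difference 2.33 ± 0.20 (SE), adjusted p = 3.94e-07). XTH15 rose from 24.5 ± 4.6 to 84.2 ± 4.0 TPM (log2 difference 1.75 ± 0.13 (SE), adjusted p = 9.82e-08) and XTH23 and XTH33 by 1.74 and 1.69. XTH31 fell from 143 ± 22 to 69.1 ± 8.4 TPM (log2 difference -1.03 ± 0.11 (SE), adjusted p = 4.37e-06), XTH20 fell by 1.32, and the expansins EXPA15 and EXPA16 fell by 1.03 and 0.88. Aquaporins, the membrane channels for water, rose in 13 and fell in 3 of 28 cases. TIP1;2, a vacuolar aquaporin, measured 1868, 1781 and 1771 TPM at 21°C and 3944, 3613 and 3467 TPM at 27°C, 2.03-fold higher and without overlap (log2 difference 1.02 ± 0.07 (SE), adjusted p = 3.31e-08). DELTA-TIP, another, rose from 1311 ± 83 to 2715 ± 131 TPM (log2 difference 1.05 ± 0.08 (SE), adjusted p = 1.19e-07), and the plasma membrane aquaporin PIP2;7 rose from 703 ± 33 to 1336 ± 19.6 TPM (log2 difference 0.93 ± 0.06 (SE), adjusted p = 3.04e-08). SIP1;2, a small basic aquaporin, fell from 9.28 ± 0.87 to 4.11 ± 0.56 TPM (log2 difference -1.01 ± 0.16 (SE), adjusted p = 0.00014).

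Heat-inducible chaperones rose and several constitutive ones fell. HSP70, a cytosolic chaperone gene induced by heat, measured 8.72, 6.84 and 7.74 TPM at 21°C and 85.4, 95.6 and 86.8 TPM at 27°C. The groups were far apart, and HSP70 rose 11.5-fold (log2 difference 3.37 ± 0.09 (SE), adjusted p = 4.83e-12). HSP90.1, the heat-inducible cytosolic HSP90, measured 4.21, 5.70 and 5.03 TPM at 21°C and 60.4, 56.9 and 56.2 TPM at 27°C, with the same separation (log2 difference 3.31 ± 0.11 (SE), adjusted p = 3.2e-11). HSP101, a disaggregase needed for survival of severe heat, rose less, from 7.03 ± 1.2 to 15.2 ± 1.9 TPM (log2 difference 1.02 ± 0.13 (SE), adjusted p = 2.58e-05). ROF2, an immunophilin of heat acclimation, and HOP3, a co-chaperone that links HSP70 to HSP90, rose by 2.56 and 2.43.

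The constitutive cytosolic HSP90 genes fell: HSP81-2 went from 334 ± 13 to 229.8 ± 4.7 TPM (log2 difference -0.54 ± 0.06 (SE), adjusted p = 3.23e-06) and HSP81-3 from 256 ± 10.2 to 184 ± 11 TPM (log2 difference -0.47 ± 0.07 (SE), adjusted p = 5.76e-05). These genes resemble each other in sequence, and the handling of shared reads is not stated in the sources. The chloroplast HSP70 cpHsc70-2 measured 422, 394 and 452 TPM at 21°C and 235, 210.4 and 214 TPM at 27°C. Each warm library was well below each 21°C library (log2 difference -0.94 ± 0.07 (SE), adjusted p = 2.2e-07). In all, 11 of 28 tested large chaperones and co-chaperones rose and 7 fell, or 9 and 11 with length centring. Folding factors of the endoplasmic reticulum rose in 3 and fell in 9 of 25 cases. BIP2, the main HSP70 of that compartment, fell from 229 ± 30.1 to 150.1 ± 4.3 TPM (log2 difference -0.60 ± 0.08 (SE), adjusted p = 3.02e-05), and BIP3, its stress-induced relative, fell from 5.52 ± 3.3 to 1.68 ± 0.21 TPM (log2 difference -1.17 ± 0.28 (SE), adjusted p = 0.00335).

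Small heat shock proteins, which bind unfolding proteins, rose in 7 and fell in 0 of 12 tested cases, with a median of 0.98. The median was 0.58 over 15 members with no filter, 1.53 over 9 with a filter of 5 TPM, and 2.16 with a pseudocount of 0.1. Another 3 of the 15 listed were too low to test, HSP21 among them. HSP17.4 measured 0, 0.447 and 0 TPM at 21°C and 5.89, 9.75 and 8.89 TPM at 27°C. The transcript was listed at 0 in a pair of the 21°C libraries and was present in every warm library (log2 difference 2.99 ± 0.23 (SE), adjusted p = 1.83e-07). AT5G51440, annotated as an HSP20-like chaperone, rose from 3.13 ± 0.17 to 24.8 ± 2.7 TPM (log2 difference 2.64 ± 0.13 (SE), adjusted p = 3.78e-09), and HSP17.6 rose from 0.313 ± 0.39 to 4.91 ± 2.7 TPM (log2 difference 2.099 ± 0.37 (SE), adjusted p = 0.00034). HSP18.2 did not pass (log2 difference -0.14, adjusted p = 0.634), so this family did not move as 1 block. Of 22 genes in the heat shock factor list 11 rose and 1 fell. HSFA3 rose from 4.1004 ± 0.097 to 11.5 ± 1.1 TPM (log2 difference 1.29 ± 0.13 (SE), adjusted p = 2.7e-06), and DREB2A, a heat and drought factor that activates HSFA3, rose from 7.16 ± 0.52 to 16.3 ± 3.1 TPM (log2 difference 1.07 ± 0.12 (SE), adjusted p = 5.82e-06).

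Heat shock factors bind repeats of GAA and TTC. The promoter of HSP17.4 is shown because it was the highest rising small heat shock gene and holds the heat shock element, in capitals, here searched as 3 alternating GAA and TTC units spaced by 2 bases.
HSP17.4 promoter, chr3:16984868-16985117 (minus strand): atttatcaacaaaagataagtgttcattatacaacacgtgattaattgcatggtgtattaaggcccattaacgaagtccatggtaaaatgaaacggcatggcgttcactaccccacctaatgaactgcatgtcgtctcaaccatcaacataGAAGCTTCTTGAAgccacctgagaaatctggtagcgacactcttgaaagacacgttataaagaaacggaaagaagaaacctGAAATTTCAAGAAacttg
The first bases of the copies lie 99 and 18 bases before the gene start. Among the 7 small heat shock genes that rose 2 windows (28.6%) held the element, against 77 of all 19893 windows (0.387%), and the windows of HSP70 and HSP90.1 did not. Windows of listed small heat shock genes that did not rise were not counted.

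Late embryogenesis and seed maturation genes had the largest median of the 48 lists. Of the 38 listed genes 22 were tested, and 17 rose and 0 fell, with a median log2 difference of 2.23. With no filter 17 of 37 rose, with a median of 0.93, since the filter removes genes that reached 1 TPM in fewer than 3 of the 12 libraries. Late embryogenesis abundant proteins protect membranes and enzymes of drying seeds and are induced by abscisic acid. M17 measured 0.133, 2.02 and 0.132 TPM at 21°C and 46.2, 36.9 and 55.0 TPM at 27°C. It was nearly absent from the 21°C libraries and present in every warm library (log2 difference 4.89 ± 0.39 (SE), adjusted p = 2.19e-07). RAB18, a dehydrin, measured 16.9, 15.8 and 4.65 TPM at 21°C and 124, 141 and 146 TPM at 27°C. The 21°C libraries were uneven, with replicate 3 lowest, and all lay far below the warm libraries (log2 difference 3.53 ± 0.33 (SE), adjusted p = 9.8e-07). RD29B, a drought and abscisic acid response gene, measured 11.3, 5.01 and 1.51 TPM at 21°C and 76.7, 65.4 and 66.8 TPM at 27°C, with the same order (log2 difference 3.63 ± 0.40 (SE), adjusted p = 4.47e-06). BETA-TIP, a seed vacuole aquaporin, rose from 0.278 ± 0.32 to 18.6 ± 0.88 TPM (log2 difference 3.97 ± 0.24 (SE), adjusted p = 2.01e-08).

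In 16 of the 17 genes that rose, the lowest 21°C library was replicate 3, and in the other it was replicate 2. All 17 genes that rose did so without overlap between groups. Genes picked because they passed mostly have their groups apart, so this adds little to the calls. Over all tested genes, passing or not, 30.8% had every warm library above every 21°C library and 18.8% the reverse. Leaving out 21°C replicate 3, 17 rose and 0 fell, with a median of 1.89. The defining seed storage proteins were low in both groups: their summed TPM was 1.34, 20.9 and 0.959 at 21°C and 4.36, 12.9 and 19.05 at 27°C, with overlapping groups. CRA1, a 12S seed storage protein, measured 0.394, 9.11 and 0 TPM at 21°C and 3.45, 5.46 and 17.38 TPM at 27°C and did not pass (log2 difference 1.74, adjusted p = 0.104). ABI5, the transcription factor of abscisic acid response in seeds, rose (log2 difference 0.93, adjusted p = 0.000127), whereas ABI3, the seed master regulator, did not pass (log2 difference 0.48, adjusted p = 0.0726). The part of ungerminated or late seeds among the seedlings was not tested.

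**Figure D4:**
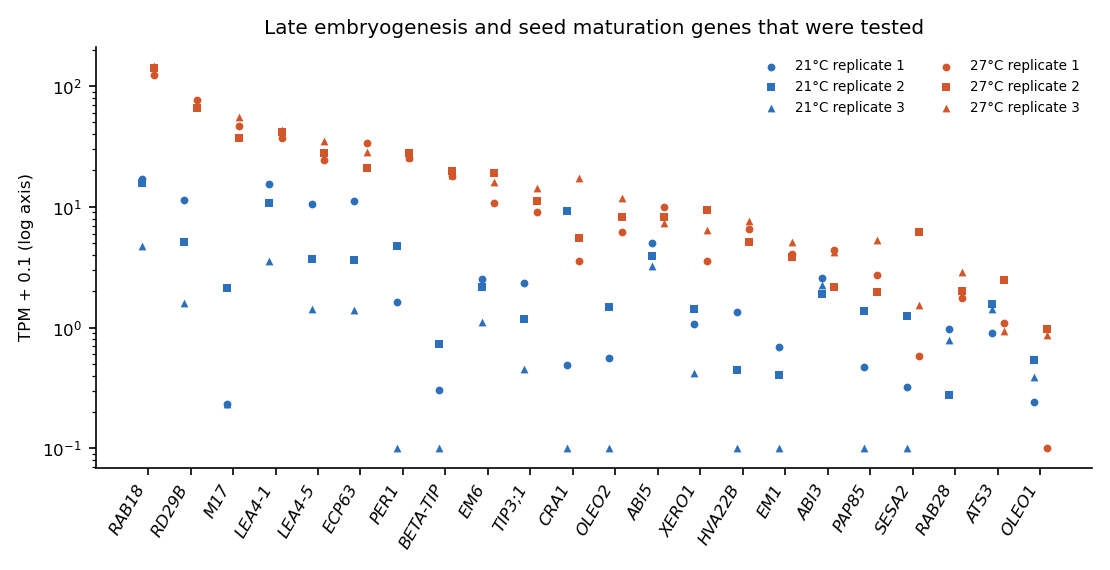
TPM plus 0.1 on a log axis for the 22 tested late embryogenesis and seed maturation genes, ordered by their mean at 27°C, with a symbol for each replicate, blue at 21°C and orange at 27°C. The 21°C values spread widely, with replicate 3 mostly lowest, and sit below the 27°C values for the 17 genes that passed but not for the storage genes CRA1 and SESA2.

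The abscisic acid response element has the core ACGTGTC or ACGTGGC, bound by factors of the ABI5 and ABF group. The promoters of RAB18 and RD29B are shown because both genes rose strongly and are classic abscisic acid targets. Capitals mark the core on either strand.
RAB18 promoter, chr5:26519448-26519697 (minus strand): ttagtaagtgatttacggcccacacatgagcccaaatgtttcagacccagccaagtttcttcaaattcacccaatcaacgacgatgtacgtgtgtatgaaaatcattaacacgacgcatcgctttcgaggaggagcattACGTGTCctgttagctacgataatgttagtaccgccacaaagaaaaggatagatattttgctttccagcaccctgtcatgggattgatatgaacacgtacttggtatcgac
RD29B promoter, chr5:21236771-21237020 (plus strand): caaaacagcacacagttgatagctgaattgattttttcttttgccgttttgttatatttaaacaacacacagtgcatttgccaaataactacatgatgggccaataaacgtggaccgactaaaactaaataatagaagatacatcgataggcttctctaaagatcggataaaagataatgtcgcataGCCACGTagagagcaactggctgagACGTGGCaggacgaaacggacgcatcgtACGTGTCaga
The core begins 111 bases before the gene start of RAB18, and 63, 38 and 10 bases before that of RD29B. Among the 17 late embryogenesis genes that rose 12 windows (70.6%) held it, against 1467 of all 19893 windows (7.37%). Windows of listed genes that did not rise were not counted. Whether the share goes with the rise or with the choice of list was therefore not tested. The core overlaps the G-box CACGTG where a C precedes it, and 9 of the 17 windows (52.9%) held a G-box. M17 and BETA-TIP had no core in this window.

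Other abscisic acid genes changed less. Of 37 tested genes for synthesis, receptors and signalling 16 rose and 3 fell, with a median of 0.26. ABF3, which activates genes through that element, measured 10.5, 12.9 and 13.1 TPM at 21°C and 39.1, 36.5 and 35.3 TPM at 27°C. The warm libraries were all far above the 21°C libraries (log2 difference 1.53 ± 0.12 (SE), adjusted p = 2.03e-07). The phosphatases HAB1, HAI1 and HAI3, which switch the pathway off, rose by 0.89, 0.90 and 1.24. The receptor PYL6 fell from 26.8 ± 2.8 to 12.1 ± 0.43 TPM (log2 difference -1.08 ± 0.12 (SE), adjusted p = 6.41e-06) and the receptor PYL1 fell by 0.50. RD29A, which answers to cold as well as to abscisic acid, fell from 12.3 ± 0.70 to 6.08 ± 0.64 TPM (log2 difference -0.92 ± 0.12 (SE), adjusted p = 2.56e-05), opposite to RD29B. Protective sugar and proline genes split as well, 8 higher and 5 lower of 18. GOLS1, a heat-induced galactinol synthase, rose from 3.39 ± 0.31 to 14.5 ± 1.8 TPM (log2 difference 1.81 ± 0.13 (SE), adjusted p = 6.85e-08), and ERD5, which degrades proline, fell from 172 ± 19 to 104 ± 4.6 TPM (log2 difference -0.71 ± 0.09 (SE), adjusted p = 1.69e-05).

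Cold-regulated genes were among the largest falls. COR15B, a chloroplast protein that protects membranes in freezing, measured 39.0, 33.6 and 34.8 TPM at 21°C and 0.864, 0.902 and 1.14 TPM at 27°C. The warm libraries held little of it, a 36.9-fold lower mean and a fall without overlap (log2 difference -4.22 ± 0.18 (SE), adjusted p = 4.21e-10). COR15A, its neighbour and paralogue, measured 16.9, 13.5 and 22.2 TPM at 21°C and 1.03, 0.615 and 0.928 TPM at 27°C (log2 difference -3.30 ± 0.21 (SE), adjusted p = 3.48e-08). KIN2 fell from 52.5 ± 9.1 to 14.6 ± 3.2 TPM (log2 difference -1.78 ± 0.22 (SE), adjusted p = 1.43e-05) and COR413IM1, an inner envelope protein of the chloroplast, fell from 38.1 ± 12 to 10.08 ± 0.91 TPM (log2 difference -1.78 ± 0.18 (SE), adjusted p = 2.44e-06). Of 26 tested genes of the cold regulon 10 fell and 9 rose, or 10 and 5 after rescaling. The genes that rose include RD29B, counted above, and GRP7, a clock-controlled RNA-binding protein, which went from 1775 ± 20.4 to 2800.2 ± 191 TPM (log2 difference 0.66 ± 0.08 (SE), adjusted p = 7.67e-06).

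CBF factors of cold acclimation bind the C-repeat, whose core is CCGAC. The COR15A promoter is shown as a known CBF target with a large fall, with the core in capitals on either strand.
COR15A promoter, chr2:17712331-17712580 (minus strand): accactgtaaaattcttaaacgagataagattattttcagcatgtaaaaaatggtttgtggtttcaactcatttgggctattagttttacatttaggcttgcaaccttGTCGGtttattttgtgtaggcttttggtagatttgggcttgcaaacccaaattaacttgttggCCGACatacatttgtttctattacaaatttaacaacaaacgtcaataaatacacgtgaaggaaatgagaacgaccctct
The cores begin 142 and 79 bases before the gene start. Over all tested genes 2539 windows (12.8%) held the core, a short and common sequence, and the window of COR15B did not. In the cold regulon it was in 3 of 10 windows (30%) of genes that fell and 3 of 9 (33.3%) of genes that rose.

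Photosynthetic antenna genes moved in both directions. LHCB1 and LHCB2 proteins form the trimers of the main light-harvesting complex of photosystem II. LHCB1.1 measured 1070.1, 1184 and 1065 TPM at 21°C and 12.9, 18.5 and 15.5 TPM at 27°C. The mean was 70.8-fold lower at 27°C, and this was the largest fall of all tested genes (log2 difference -6.07 ± 0.13 (SE), adjusted p = 5.97e-13). LHCB1.2, LHCB1.3 and LHCB1.4 fell by smaller amounts: LHCB1.2 went from 5406 ± 224 to 2091 ± 258 TPM (log2 difference -1.38 ± 0.08 (SE), adjusted p = 1.51e-08), LHCB1.3 from 29799.8 ± 225 to 17541 ± 739 TPM (log2 difference -0.77 ± 0.06 (SE), adjusted p = 2.72e-07) and LHCB1.4 from 745 ± 75 to 251 ± 12 TPM (log2 difference -1.56 ± 0.14 (SE), adjusted p = 8.64e-07). The remaining copy is not given by itself and enters only the sum below. What the printed means leave of that sum changed by less than any of these copies did. The coding sequences of LHCB1.1, LHCB1.2 and LHCB1.3 are nearly identical, and the same limit on shared reads holds, so single-copy values are uncertain. The sum of the 5 LHCB1 genes was 40565, 40462 and 39768 TPM at 21°C and 21881, 24013 and 22248 TPM at 27°C, without overlap. LHCB1.1 made up between 2.64% and 2.93% of that sum at 21°C and between 0.059% and 0.0769% at 27°C.

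The LHCB2 genes rose from a low level. LHCB2.1 measured 7.43, 8.44 and 7.63 TPM at 21°C and 39.4, 39.1 and 34.8 TPM at 27°C (log2 difference 2.13 ± 0.11 (SE), adjusted p = 4.44e-09), and LHCB2.2 measured 12.9, 11.2 and 11.8 TPM at 21°C and 36.1, 41.8 and 41.1 TPM at 27°C (log2 difference 1.64 ± 0.10 (SE), adjusted p = 2.67e-08). The sum of the 3 LHCB2 genes was 27.2, 24.5 and 24.4 TPM at 21°C and 86.5, 96.2 and 85.9 TPM at 27°C, also without overlap. Against LHCB1 this sum was small in every library. The handling of reads shared between LHCB2 copies is not stated either, so the low level and its distance from LHCB1 are uncertain. LHCB4.2, a minor antenna protein, rose from 201 ± 1.8 to 827 ± 10.05 TPM (log2 difference 2.03 ± 0.05 (SE), adjusted p = 4.84e-12) and LHCB6, another, rose from 567 ± 44 to 1202 ± 151 TPM (log2 difference 1.08 ± 0.08 (SE), adjusted p = 9.11e-08), while LHCB3, a member of the trimers, fell from 1193 ± 67 to 446 ± 13 TPM (log2 difference -1.42 ± 0.10 (SE), adjusted p = 9.11e-08). Of 28 tested antenna genes 10 rose and 12 fell.

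Of 47 tested genes of the photosystems, Rubisco and the Calvin cycle 14 rose (29.8%) and 15 fell (31.9%). The share that rose was near the 28.2% of all tested genes, and the share that fell was above their 16.6%. After rescaling 10 rose and 18 fell, beside 22% and 21.8% of all tested genes. PSAD-2, a stromal subunit of photosystem I, measured 365, 342 and 334 TPM at 21°C and 1002, 1005 and 984 TPM at 27°C. Every warm value was above every 21°C value (log2 difference 1.52 ± 0.06 (SE), adjusted p = 2.27e-10). PSAN, a lumenal subunit of the same complex, fell from 1066 ± 22 to 560.3 ± 67 TPM (log2 difference -0.93 ± 0.08 (SE), adjusted p = 3.21e-07). RCA, which activates Rubisco, rose from 3645 ± 91 to 4956 ± 157 TPM (log2 difference 0.44 ± 0.05 (SE), adjusted p = 1.47e-05), and PETC, the Rieske protein of the cytochrome complex, fell from 1413 ± 51 to 1049 ± 49 TPM (log2 difference -0.43 ± 0.05 (SE), adjusted p = 8.97e-06).

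Chlorophyll synthesis showed more falls than rises, 17 against 9 of 34. PORB, the light-dependent protochlorophyllide reductase of green seedlings, measured 414, 376 and 400.1 TPM at 21°C and 1035, 922 and 910.1 TPM at 27°C, without overlap (log2 difference 1.27 ± 0.06 (SE), adjusted p = 3.67e-09). CRD1, of the ring-closing cyclase, rose from 312 ± 13 to 678 ± 59 TPM (log2 difference 1.11 ± 0.07 (SE), adjusted p = 2.82e-08), and GLK2, a factor of chloroplast development, rose by 0.91. HEME2, an earlier enzyme, fell from 223 ± 3.1 to 129 ± 5.7 TPM (log2 difference -0.79 ± 0.05 (SE), adjusted p = 3.31e-08), and GUN1, of plastid-to-nucleus signalling, fell by 0.52. In starch and trehalose metabolism 12 rose and 13 fell of 51, or 8 and 17 after rescaling. The balance turned with single libraries, to 12 and 8 without 21°C replicate 1, 11 and 9 without 21°C replicate 3, and 17 and 10 without 27°C replicate 2. ADG1, the small subunit of the enzyme that commits glucose to starch, fell from 351 ± 17 to 219 ± 39.97 TPM (log2 difference -0.69 ± 0.10 (SE), adjusted p = 4.72e-05). TPS8, a trehalose phosphate synthase-like protein repressed by sugar, rose from 50.9 ± 3.2 to 99.3 ± 12 TPM (log2 difference 0.95 ± 0.08 (SE), adjusted p = 5.32e-07).

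Of 26 carbon starvation markers 14 rose and 3 fell, with a median of 0.36. DIN6, the dark-induced asparagine synthetase, measured 31.4, 26.0 and 16.3 TPM at 21°C and 60.4, 64.0 and 63.1 TPM at 27°C. The 21°C values spread, with replicate 3 lowest, and did not reach the warm ones (log2 difference 1.36 ± 0.27 (SE), adjusted p = 0.000776). SEN1 rose from 145 ± 39 to 318 ± 15 TPM (log2 difference 1.17 ± 0.26 (SE), adjusted p = 0.00191) and STP1, a sugar carrier repressed by sugar, rose from 94.7 ± 6.2 to 231 ± 26 TPM (log2 difference 1.28 ± 0.08 (SE), adjusted p = 3.31e-08). 21°C replicate 3 was lowest in 11 of the 14 that rose, and without it 12 rose and 4 fell, with a median of 0.33. DIN11, of the same dark-induced series, fell from 3.72 ± 1.2 to 0.676 ± 0.16 TPM (log2 difference -1.47 ± 0.19 (SE), adjusted p = 2.76e-05).

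Ribosomal protein genes fell together by a small amount. By product name 78 cytosolic ribosomal protein genes were listed, which may not be the whole family, and 70 were tested. Of these 50 fell and 6 rose, with a median log2 difference of -0.56, or 52 and 3 after rescaling. Without 27°C replicate 3, 47 fell and 3 rose. AT3G05560, of the L22e family, measured 389.9, 396 and 405 TPM at 21°C and 172, 218 and 194 TPM at 27°C. All warm values were well below all 21°C values (log2 difference -1.03 ± 0.07 (SE), adjusted p = 5.7e-08). AT2G36170, the L40 protein made as a fusion with ubiquitin, fell from 143 ± 4.3 to 73.8 ± 12 TPM (log2 difference -0.96 ± 0.09 (SE), adjusted p = 1.71e-06), and AT3G53890, S21e, fell from 223 ± 7.3 to 114 ± 23 TPM (log2 difference -0.99 ± 0.10 (SE), adjusted p = 3.28e-06). AT5G02440, annotated as L36, rose from 12.7 ± 1.3 to 24.5 ± 1.6 TPM (log2 difference 0.90 ± 0.12 (SE), adjusted p = 2.38e-05). Their median transcript was 861 bases, shorter than the 1726 of all tested genes. Without 27°C replicate 1, which was low in short transcripts, 47 fell and 6 rose with a median of -0.46; without 27°C replicate 2, 51 fell and 4 rose with a median of -0.68. After each gene was centred on genes of like length, 50 fell and 4 rose with a median of -0.53. The telo-box AAACCCTA, frequent in promoters of these genes, was in 11 of the 50 windows (22%) of those that fell and in 698 of all windows (3.51%). It was also in 1 of the 6 windows (16.7%) of those that rose.

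Cell division genes fell too. Of 56 tested genes of the cell cycle and DNA replication 33 fell and 2 rose, with a median of -0.41, or 36 and 1 after rescaling. Their median transcript was 1827 bases, against 1726 for all tested genes. With length centring 39 fell and 1 rose, with a median of -0.48. PCNA1, the sliding clamp of DNA polymerase, measured 46.6, 51.3 and 49.8 TPM at 21°C and 19.2, 28.3 and 26.0 TPM at 27°C. The groups were apart (log2 difference -0.99 ± 0.14 (SE), adjusted p = 4.01e-05). CYCB1;1, a mitotic cyclin, measured 14.1, 15.1 and 14.2 TPM at 21°C and 7.22, 7.54 and 6.95 TPM at 27°C, lower in every warm library (log2 difference -0.91 ± 0.10 (SE), adjusted p = 6.52e-06). RNR1, of ribonucleotide reductase, fell from 68.5 ± 2.4 to 38.3 ± 8.4 TPM (log2 difference -0.84 ± 0.12 (SE), adjusted p = 3.81e-05). CYCD1;1 and CYCD3;1, cyclins of the entry into division, rose by 0.51 and 0.25, and CYCD3;1 lost its call after rescaling and with length centring. In the shoot list, MUTE, which ends the divisions of guard cell precursors, fell from 2.49 ± 0.99 to 0.532 ± 0.27 TPM (log2 difference -1.17 ± 0.28 (SE), adjusted p = 0.00315), and EPF2, a peptide of early precursors, fell from 9.05 ± 1.2 to 3.79 ± 0.31 TPM (log2 difference -1.06 ± 0.22 (SE), adjusted p = 0.00119). STOMAGEN, a mesophyll peptide that promotes stomata, rose from 26.49 ± 2.8 to 35.6 ± 3.2 TPM (log2 difference 0.41 ± 0.11 (SE), adjusted p = 0.00521). The shoot list as a whole had 17 lower and 5 higher of 30, or 11 lower without 21°C replicate 1.

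Aliphatic glucosinolate synthesis had the lowest median of the 48 lists and no member that rose. These sulphur compounds, made from methionine, deter insects. Of 24 tested genes 21 fell, with a median log2 difference of -0.87. CYP79F1, the cytochrome P450 that commits chain-elongated methionine to the pathway, measured 21.3, 20.5 and 27.8 TPM at 21°C and 5.02, 2.995 and 1.87 TPM at 27°C. All warm values were far below all 21°C values (log2 difference -2.55 ± 0.26 (SE), adjusted p = 2.38e-06). GSTU20, a glutathione transferase of the core pathway, measured 276, 287 and 324 TPM at 21°C and 69.4, 76.6 and 75.1 TPM at 27°C, again without overlap (log2 difference -1.99 ± 0.07 (SE), adjusted p = 1.32e-10). BCAT4 and IPMI1, of the side chain elongation, fell from 26.9 ± 8.2 to 7.43 ± 0.38 TPM (log2 difference -1.69 ± 0.22 (SE), adjusted p = 2.22e-05) and from 63.1 ± 12 to 22.8 ± 1.2 TPM (log2 difference -1.42 ± 0.14 (SE), adjusted p = 2.19e-06). MYB29, a regulator of the pathway, fell (log2 difference -1.32, adjusted p = 0.00077), while its relative MYB28 did not pass (log2 difference -0.13, adjusted p = 0.183); these 2 were picked out after their values were seen.

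Indole glucosinolate and camalexin genes, which start from tryptophan, had 12 higher and 6 lower of 32, beside 28.2% and 16.6% of all tested genes. CYP71A12, of indole defence compounds, measured 0.702, 1.33 and 2.54 TPM at 21°C and 17.1, 20.17 and 16.4 TPM at 27°C. It was low in every 21°C library and clearly higher in every warm library (log2 difference 2.96 ± 0.23 (SE), adjusted p = 1.8e-07). IGMT1, which methylates indole glucosinolates, rose from 17.5 ± 0.41 to 76.9 ± 6.3 TPM (log2 difference 2.07 ± 0.07 (SE), adjusted p = 4.88e-11). ESM1, which steers the breakdown products of glucosinolates, measured 389.6, 375 and 359 TPM at 21°C and 97.8, 85.4 and 82.4 TPM at 27°C and fell (log2 difference -2.07 ± 0.07 (SE), adjusted p = 6.05e-11). The myrosinases TGG1 and TGG2, which start that breakdown, fell by 0.36 and 0.69.

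Flavonoid genes fell more often than they rose. Of 28 tested 12 fell and 6 rose, with a median of -0.29, and 3 rose without 21°C replicate 1 or without 27°C replicate 3. DFR, the first enzyme committed to anthocyanin, measured 12.5, 11.6 and 9.95 TPM at 21°C and 2.37, 3.25 and 1.90 TPM at 27°C. The groups did not overlap, and DFR fell (log2 difference -1.83 ± 0.17 (SE), adjusted p = 1.06e-06). TT19, an anthocyanin transporter, fell from 7.01 ± 1.1 to 1.03 ± 0.43 TPM (log2 difference -2.00 ± 0.21 (SE), adjusted p = 2.89e-06), and FLS1, flavonol synthase, fell from 62.3 ± 8.9 to 24.7 ± 1.5 TPM (log2 difference -1.29 ± 0.10 (SE), adjusted p = 1.58e-07). The general phenylpropanoid enzymes PAL1 and C4H rose by 0.41 and 0.32. PAL1 lost its call without 21°C replicate 1 or without 27°C replicate 3, in the 6 libraries alone and with length centring. MYBL2, which represses anthocyanin synthesis, rose from 3.78 ± 1.2 to 11.3 ± 1.1 TPM (log2 difference 1.39 ± 0.20 (SE), adjusted p = 5.99e-05).

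Salicylic acid genes showed no common direction. ICS1, the isochorismate synthase that makes most salicylic acid in infected leaves, measured 5.88, 5.23 and 4.03 TPM at 21°C and 4.42, 5.05 and 5.87 TPM at 27°C. The groups overlapped fully, and ICS1 did not pass (log2 difference 0.02 ± 0.13 (SE), adjusted p = 0.915). Its paralogue ICS2 measured 4.03, 3.59 and 4.18 TPM at 21°C and 9.45, 11.35 and 9.90 TPM at 27°C, with the groups apart (log2 difference 1.19 ± 0.14 (SE), adjusted p = 9.33e-06). PR5, a pathogenesis-related protein induced by salicylic acid, measured 10.6, 9.42 and 9.51 TPM at 21°C and 2.09, 2.21 and 1.43 TPM at 27°C and fell without overlap (log2 difference -1.91 ± 0.16 (SE), adjusted p = 2.92e-07). SARD1, a direct activator of ICS1, fell from a low level, from 0.982 ± 0.27 to 0.270 ± 0.032 TPM (log2 difference -0.63 ± 0.20 (SE), adjusted p = 0.0199). FMO1, of systemic immunity, rose from 0.204 ± 0.071 to 1.27 ± 0.26 TPM (log2 difference 0.91 ± 0.27 (SE), adjusted p = 0.0137) and UGT76B1, which glucosylates salicylic acid, rose from 21.4 ± 4.7 to 40.7 ± 0.36 TPM (log2 difference 0.92 ± 0.11 (SE), adjusted p = 1.11e-05). SARD1 lost its call without 21°C replicate 2 or without 27°C replicate 3, and FMO1 without 27°C replicate 3. In the list 11 of 33 genes rose (33.3%) and 3 fell (9.09%), beside 28.2% and 16.6% of all tested genes.

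Pattern receptor and early immunity genes rose in 13 and fell in 5 of 34 cases, beside 28.2% and 16.6% of all tested genes. FLS2, the flagellin receptor, rose from 13.4 ± 0.85 to 22.04 ± 4.3 TPM (log2 difference 0.67 ± 0.12 (SE), adjusted p = 0.00049), and MPK3, a kinase of early immune signalling, fell from 62.0 ± 1.3 to 46.6 ± 4.5 TPM (log2 difference -0.41 ± 0.07 (SE), adjusted p = 0.000254). Jasmonate genes rose in 14 and fell in 3 of 30, or 9 and 6 after rescaling, when 22% and 21.8% of all tested genes rose and fell. ST2A, which sulphonates a hydroxylated jasmonate, rose from 3.83 ± 0.34 to 15.1 ± 2.2 TPM (log2 difference 1.73 ± 0.17 (SE), adjusted p = 1.44e-06). LOX3, a lipoxygenase of synthesis, rose from 5.52 ± 0.49 to 13.5 ± 2.5 TPM (log2 difference 1.14 ± 0.13 (SE), adjusted p = 6.98e-06), and VSP1, a storage protein induced by jasmonate, rose from 4.81 ± 0.30 to 13.7 ± 0.30 TPM (log2 difference 1.34 ± 0.13 (SE), adjusted p = 2.02e-06). AOC2, another synthesis enzyme, fell from 119.6 ± 4.4 to 82.4 ± 5.2 TPM (log2 difference -0.53 ± 0.11 (SE), adjusted p = 0.000826).

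Iron acquisition genes were higher, with uneven 21°C libraries. The helix-loop-helix factors BHLH38, BHLH39, BHLH100 and BHLH101 are induced when iron runs short and turn on uptake in the root. BHLH100 measured 2.57, 6.15 and 13.3 TPM at 21°C and 67.3, 153 and 59.1 TPM at 27°C. The groups did not overlap, and 27°C replicate 2 stood highest (log2 difference 3.59 ± 0.43 (SE), adjusted p = 1.05e-05). BHLH39 measured 3.005, 12.8 and 22.7 TPM at 21°C and 54.9, 101 and 57.6 TPM at 27°C, with 21°C replicate 1 lowest (log2 difference 2.66 ± 0.45 (SE), adjusted p = 0.000222). BHLH101 rose from 5.96 ± 2.5 to 45.9 ± 22 TPM (log2 difference 2.71 ± 0.28 (SE), adjusted p = 2.85e-06). IRT1, the root iron transporter, measured 68.4, 163 and 247 TPM at 21°C and 242, 221 and 257 TPM at 27°C. 21°C replicate 3 lay within the warm range, and IRT1 did not pass (log2 difference 0.77, adjusted p = 0.0532). The ferritins FER3 and FER4, which store iron, fell by 0.56 and 0.74, and NAS4, which makes an iron carrier, fell from 60.2 ± 9.8 to 28.1 ± 9.2 TPM (log2 difference -1.10 ± 0.17 (SE), adjusted p = 0.000111).

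Of 32 iron genes 17 rose and 5 fell, with a median of 0.70. In 16 of the 17 that rose 21°C replicate 1 was the lowest 21°C library, the library that was also low in root markers. Without it 14 rose and 5 fell, with a median of 0.46. PIN2, an auxin carrier of the root tip, shows the same library: 15.8, 24.2 and 28.0 TPM at 21°C and 20.6, 19.6 and 20.4 TPM at 27°C, without passing (log2 difference -0.12, adjusted p = 0.526). Of 29 root markers 4 rose and 4 fell, or 2 and 6 after rescaling, and without 21°C replicate 1 the number that fell was 9. The part of root tissue in the iron result was not tested. CASP5, of the endodermal barrier of the root, rose by 2.16, and WER, of the root epidermis, fell by 0.92.

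Nitrate genes split, 8 higher and 11 lower of 30, beside 28.2% and 16.6% over all tested genes. Without 21°C replicate 3 the count was 10 higher and 7 lower, and without 27°C replicate 2 it was 11 and 10. NRT1.5, which loads nitrate into the xylem, rose from 73.6 ± 17 to 133 ± 0.35 TPM (log2 difference 0.87 ± 0.12 (SE), adjusted p = 3.22e-05). NRT2.1, the high-affinity uptake carrier, measured 1.08, 1.75 and 3.08 TPM at 21°C and 0.307, 0.433 and 0.381 TPM at 27°C, low throughout and lower in every warm library (log2 difference -1.06 ± 0.22 (SE), adjusted p = 0.00107), and its partner NRT3.1 fell from 42.9 ± 8.5 to 24.0 ± 3.0 TPM (log2 difference -0.80 ± 0.12 (SE), adjusted p = 0.000101). ASN2, an asparagine synthetase of the light period, fell from 347 ± 18 to 164 ± 17 TPM (log2 difference -1.08 ± 0.07 (SE), adjusted p = 3.27e-08).

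Among the 122 listed mitochondrion-encoded genes 36 were tested; 20 rose and 1 fell, with a median of 0.97, and with a stricter filter of 5 TPM 8 of 12 rose, with a median of 1.13. With no filter 22 of 75 rose, with a median of 0.37, and with a pseudocount of 0.1 the median was 1.55. ATMG01370 measured 3.45, 1.498 and 3.44 TPM at 21°C and 21.04, 20.3 and 17.2 TPM at 27°C, without overlap (log2 difference 2.48 ± 0.20 (SE), adjusted p = 2.61e-07). ATMG00665 was listed at 0 in every 21°C library and measured 8.03, 15.1 and 23.9 TPM in the warm libraries (log2 difference 3.94 ± 0.64 (SE), adjusted p = 0.000156). Of 74 chloroplast-encoded genes 8 rose and 5 fell, or 6 and 9 after rescaling. Without 21°C replicate 2 the count was 5 and 7, and without 27°C replicate 1 it was 6 and 10. Organellar transcripts mostly lack long poly(A) tails, and the selection of RNA for these libraries is not stated, so their levels depend on that step. They had no transcript length in the annotation used, so length could not be weighed for them.

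Antioxidant, chromatin and surface lipid genes had no shared direction. CAT3, a catalase under clock control, rose from 628 ± 71 to 1261 ± 118 TPM (log2 difference 1.01 ± 0.08 (SE), adjusted p = 1.8e-07), and GSTF7, a glutathione transferase, rose from 14.7 ± 3.3 to 51.3 ± 3.3 TPM (log2 difference 1.76 ± 0.12 (SE), adjusted p = 5.77e-08). The antioxidant list had 13 higher (34.2%) and 6 lower (15.8%) of 38, near the 28.2% and 16.6% of all tested genes. HTA11, an H2A.Z histone of the kind that leaves nucleosomes in warmth, measured 52.4, 59.7 and 55.6 TPM at 21°C and 26.2, 45.4 and 37.9 TPM at 27°C and fell (log2 difference -0.63 ± 0.16 (SE), adjusted p = 0.00506), and HMR, a partner of phytochrome signalling needed for the warm response, fell from 133 ± 3.1 to 75.2 ± 3.4 TPM (log2 difference -0.82 ± 0.07 (SE), adjusted p = 3.69e-07). XBAT31, a ubiquitin ligase of the ELF3 pathway, rose from 225 ± 7.0 to 400.3 ± 22 TPM (log2 difference 0.83 ± 0.06 (SE), adjusted p = 4.92e-08), and VEL1, of the silencing of FLC, rose from 68.7 ± 2.3 to 137 ± 12 TPM (log2 difference 0.98 ± 0.07 (SE), adjusted p = 7.44e-08). In the chromatin list 15 rose (34.1%) and 6 fell (13.6%) of 44, again near the shares of all tested genes, and 3 fell without 21°C replicate 3 or without 27°C replicate 3. Wax, suberin and lipid transfer genes rose in 15 and fell in 11 of 46 cases, or 13 and 15 after rescaling, and 7 fell without 21°C replicate 2. CER8, an enzyme that activates wax fatty acids, went from 80.3 ± 3.6 to 38.8 ± 2.9 TPM (log2 difference -1.03 ± 0.06 (SE), adjusted p = 2.7e-08).

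Of the genes outside the lists with the largest rises, 5 are given here. AT3G17520, annotated as a late embryogenesis abundant protein, measured 11.42, 8.03 and 0.259 TPM at 21°C and 114, 118 and 124 TPM at 27°C. 21°C replicate 3 was again lowest (log2 difference 4.52 ± 0.62 (SE), adjusted p = 3.57e-05). AT2G42560, with a late embryogenesis abundant domain, rose from 1.24 ± 0.64 to 30.0 ± 6.7 TPM (log2 difference 3.82 ± 0.23 (SE), adjusted p = 1.64e-08), and AT1G54870, of the Rossmann-fold dehydrogenases, rose from 0.849 ± 0.68 to 31.9 ± 6.1 TPM (log2 difference 4.202 ± 0.29 (SE), adjusted p = 5.4e-08). FAR1, here the fatty acid reductase AT5G22500 that makes fatty alcohols for suberin, measured 4.65, 4.49 and 4.16 TPM at 21°C and 91.1, 69.5 and 93.5 TPM at 27°C. Its 21°C libraries were even, and every warm library was far above them (log2 difference 3.97 ± 0.12 (SE), adjusted p = 2.76e-11). AT2G15880, a leucine-rich repeat protein, rose from 10.5 ± 2.6 to 143 ± 37 TPM (log2 difference 3.65 ± 0.18 (SE), adjusted p = 3.61e-09).

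Among the largest falls, MEE3, a small MYB-like protein, measured 10.3, 10.3 and 9.86 TPM at 21°C and 0.298, 0.140 and 0 TPM at 27°C. It was near 0 in every warm library (log2 difference -3.29 ± 0.20 (SE), adjusted p = 1.69e-08). AT4G30650, of a low temperature and salt responsive family, fell from 43.5 ± 6.1 to 7.63 ± 0.96 TPM (log2 difference -2.37 ± 0.15 (SE), adjusted p = 2.68e-08), and PRB1, a basic pathogenesis-related protein, fell from 5.17 ± 0.58 to 0.470 ± 0.81 TPM (log2 difference -2.20 ± 0.28 (SE), adjusted p = 2.05e-05). AT5G23115, uncharacterized, measured 28.5, 5.78 and 11.37 TPM at 21°C and 0, 5.73 and 0 TPM at 27°C. Its lowest 21°C library and highest warm library were almost equal (log2 difference -2.84 ± 0.88 (SE), adjusted p = 0.0163). The call was lost without 21°C replicate 1, without 27°C replicate 1 or without 27°C replicate 3, and with voom.

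Of 16 genes used as qPCR references 5 rose (31.2%) and 1 fell (6.25%), beside 28.2% and 16.6% of all tested genes, and after rescaling 3 and 3. UBQ10, a polyubiquitin, measured 854, 895 and 898 TPM at 21°C and 1224, 1341 and 1292 TPM at 27°C. Every warm value was above every 21°C value (log2 difference 0.54 ± 0.05 (SE), adjusted p = 1.1e-06). UBQ5, a ubiquitin fused to a ribosomal protein, fell from 1088 ± 45 to 763 ± 69.8 TPM (log2 difference -0.51 ± 0.07 (SE), adjusted p = 2.57e-05). Among the most abundant passing genes, LHCB1.3 fell as given above, and THI1, of thiamine synthesis, fell from 3402 ± 119 to 2817 ± 149 TPM (log2 difference -0.27 ± 0.05 (SE), adjusted p = 0.000762). RBCS3B, a Rubisco small subunit, rose from 10428 ± 249 to 11831 ± 246 TPM (log2 difference 0.18 ± 0.06 (SE), adjusted p = 0.0186). It lost its call after rescaling, with no filter, with length centring and in the 6 libraries alone. The same held without 21°C replicate 2 or without 27°C replicate 2.

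The plot of gene lists sets all 48 lists side by side. Aliphatic glucosinolate, ribosomal protein and cell division genes lay at the lower end of the order, and late embryogenesis, small heat shock and mitochondrion-encoded genes at the upper end. The members were chosen with results of these data known, so no list was tested against other genes.

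**Figure D5:**
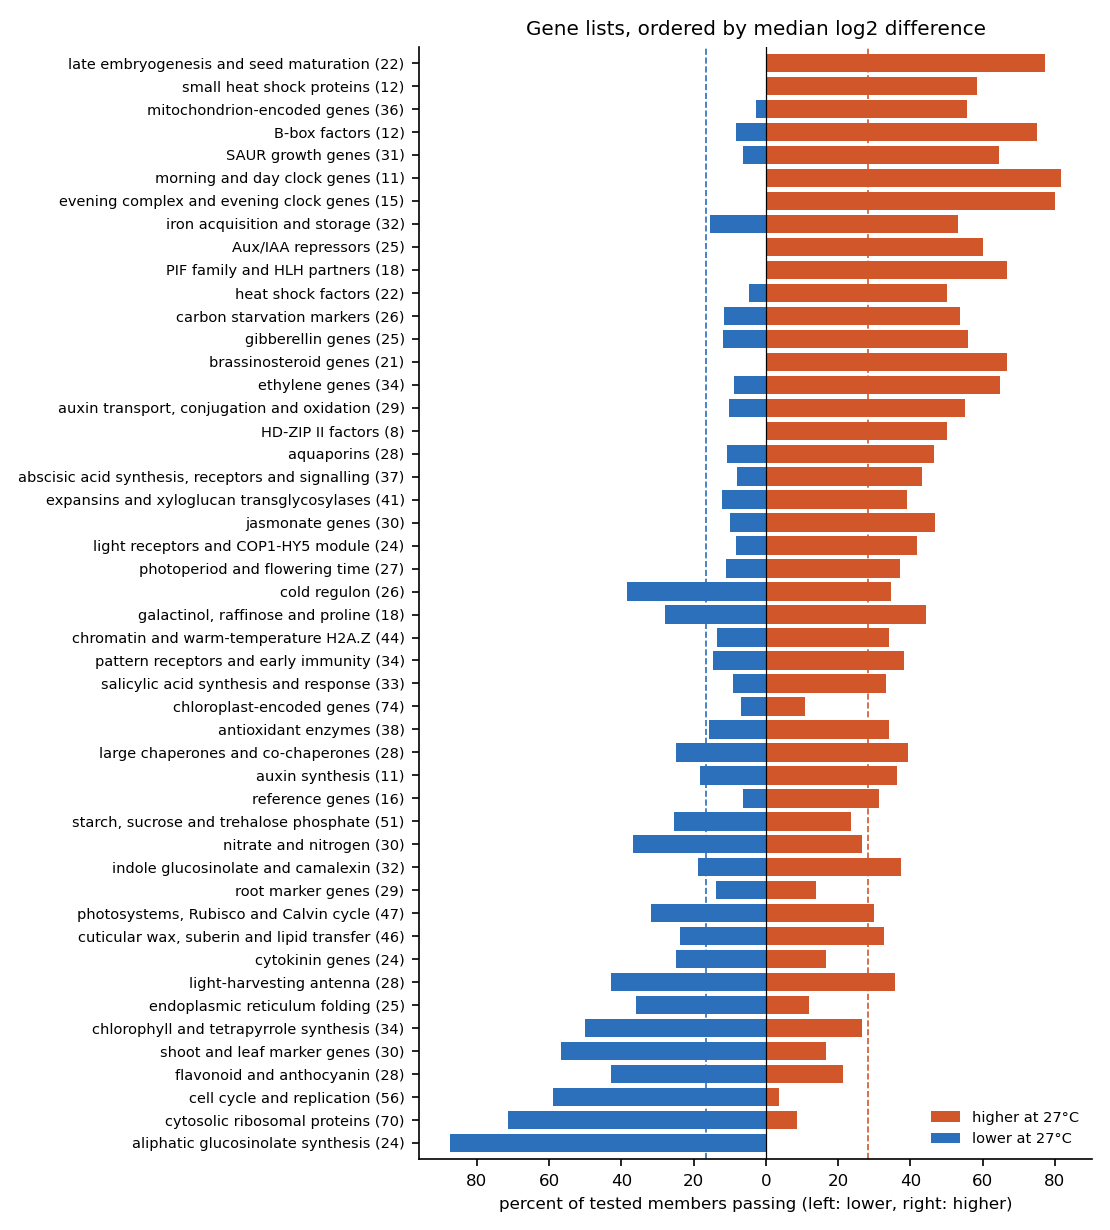
Bars give the percent of tested members of each list that passed as higher (orange, to the right) or lower (blue, to the left) at 27°C, with the number tested in parentheses and the lists ordered by median log2 difference. Dashed lines mark the 28.2% higher and 16.6% lower among all tested genes; the late embryogenesis list stands at the top and the aliphatic glucosinolate list at the bottom.

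Promoter windows of all strongly changed genes were described with the same motifs. The windows of 758 genes that rose at least 2-fold and of 252 that fell at least 2-fold were available. The G-box, bound by PIF and other factors, was in 16.4% of the higher windows, 7.54% of the lower windows and 7.46% of all. The core ACGTGTC or ACGTGGC was in 14.9%, 5.95% and 7.37%. The evening element was in 3.3%, 3.97% and 2.47%. The I-box GATAAG, common in photosynthesis promoters, was in 16.6%, 17.1% and 12.4%, and the LUX site GATACG or GATTCG in 12.1%, 12.7% and 12.5%. The auxin element TGTCTC was in 10.2%, 12.7% and 10.8%, and CCGAC in 12.9%, 11.5% and 12.8%. These shares are counts of letters on either strand, and G-box and abscisic acid cores overlap, so their shares are not independent.

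The warm response was also set against that with mannitol for 15 genes, by testing the response with mannitol minus the response without it in the same limma fit. YUC8 rose by 2.47 ± 0.18 without mannitol and by 1.17 ± 0.18 with it, a difference of -1.29 ± 0.26 (SE, adjusted p = 0.00862). With mannitol it measured 5.17, 2.76 and 4.81 TPM at 21°C and 11.5, 10.5 and 9.83 TPM at 27°C. IAA29 rose by 2.42 ± 0.12 without and by 1.28 ± 0.12 with mannitol, a difference of -1.14 ± 0.17 (adjusted p = 0.00111). LUX rose by 2.63 ± 0.10 and by 2.07 ± 0.10, a difference of -0.56 ± 0.14 (adjusted p = 0.0273), which did not pass without 21°C replicate 3 or without 27°C replicate 3. The warm response of these genes was thus larger without mannitol. PIF4 had a difference of -0.57 ± 0.22 that did not pass (adjusted p = 0.17). HSP70, COR15B, LHCB1.1, RAB18 and M17 had differences between -0.33 and -0.08 on the log2 scale, none of which passed. PRR7, LHCB2.1 and GI had differences of -0.68, -0.36 and -0.09, which did not pass either. In the other direction, HSP101, DFR and GA3OX1 had differences of 0.31, 0.45 and 0.17, also without passing. Over all genes 1024 of 20005 passed this test.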

How the data were processed

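RNA of whole seedlings was sequenced in 12 libraries, 4 groups of 3, with total RNA extracted on columns and libraries made with the NEBNext Ultra RNA kit per the labels' protocols, which state no strand. The authors deposited 1 table of TPM values for 27655 genes. Each column sums to 1000000. Per the submitters' processing notes, the genome build was TAIR10 and the tools named were HISAT2, fastp 0.20.1 and DESeq2 1.26.0; the counter and the gene lengths behind TPM are not stated there. Symbols came from RefSeq TAIR10.1, where 27445 identifiers matched, and the other 210 are organellar genes.

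Genes with at least 1 TPM in at least 3 of the 12 libraries were tested (20005, with 7650 left out) with limma 3.58.1 in R 4.3.3 on log2(TPM + 1), with 4 group means, a mean-variance trend and two-sided p-values adjusted by Benjamini-Hochberg over all tested genes. All 12 libraries entered the estimate of the spread, giving 8 residual degrees of freedom. Steps in the low values gave back whole reads, within 0.01, for 21760 of 21760 genes checked, which served for depth and for 1 alternative (voom). The fit was tested on simulated data. Promoter windows are the 250 bases before the RefSeq gene start.

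The comparison, the gene lists and the named genes were chosen with earlier results of these data known. The ribosomal protein list was drawn from product names by a pattern that replaced an earlier one, which had found too few genes in the annotation. Named are the 10 genes of largest difference in each direction, with no overlap and at least 5 TPM in the higher group, up to 4 members of each list in each direction among those passing, up to 2 where none passes, the key genes of the difference with mannitol with ELF3, ELF4, ICS1 and PHYB, and the 5 most abundant passing genes in each direction. CRA1, ABI3, ABI5, HSP18.2, IRT1, PIN2, PIF7, MYB28 and MYB29 were added after their values were seen. Alternatives were another pseudocount, other filters, median-of-ratios scaling, no trend, a replicate block, the 6 libraries alone, leaving out each replicate, voom and centring by transcript length, the last 2 added after seeing the data.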

Additional observations from a re-analysis of the deposited data

Results flagged for a closer look

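Among the 15 genes for which the warm response was set against that with mannitol, 3 responses differed by the test of the difference itself. The response with mannitol minus that without was -1.29 for YUC8, -1.14 for IAA29 and -0.56 for LUX on the log2 scale. In each the warm response was larger without mannitol.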

How the results depend on the processing

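Genes that rose numbered 4782 to 6215 when 1 replicate was left out and 4398 to 5648 under the other alternatives, and genes that fell 2865 to 3463 and 2668 to 4637. Genes that rose at least 2-fold numbered 771 to 811 and 629 to 1162, and those that fell at least 2-fold 240 to 301 and 212 to 454. The pseudocount of 0.1 gave 1162 and 404 at least 2-fold higher and lower, against 773 and 255, since it shrinks low genes less, and voom on recovered reads gave 454 lower. Residuals of the 21°C and 27°C libraries with the same replicate number correlated at 0.128, 0.116 and -0.0361. Values for libraries with unlike numbers are not given here, so whether the replicate numbers pair the samples was not tested. With the replicate block 5536 rose and 3275 fell, of which 5457 and 3209 were among the genes called without it. Centring by length gave 4877 and 4637, and the 6 libraries alone gave 4556 and 2668. Of 335 named genes that passed, between 2 and 22 lost the call under the alternatives that held all of them, 1 of the 300 left by the 5 TPM filter and 12 of the 322 with length centring, and 0 changed direction. Genes that did not pass changed sign in places: ICS1 to -0.06 after rescaling, -0.01 with voom and -0.09 with length centring, with a range of -0.11 to 0.12 over left-out replicates, and PHYB to -0.03 after rescaling and -0.04 with length centring, with a range of -0.08 to 0.24. Over left-out replicates the difference with mannitol ranged from -0.60 to -0.48 for LUX, which did not pass without 21°C replicate 3 (adjusted p = 0.0563) or without 27°C replicate 3 (adjusted p = 0.0618), from -0.22 to 0.01 for GI and from -0.44 to 0.39 for RAB18. The cause of these changes was not tested. At this depth, genes below 1 TPM rest on few reads, which limits what can be said of them.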
